A study of Mus musculus with 9 samples.

Results

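Adipokines are proteins that fat cells secrete into blood and neighbouring tissue, and the fat that sheathes the aorta is one of their sources. The level of 10 adipokine and adipocyte genes, out of 33293 gene rows, was described in RNA of mouse aorta. They are the secreted factors Lep, Retn, Adipoq, Cfd, Rbp4 and Nampt, the nuclear receptor Pparg, the cell surface receptor Acvr1c, and the adipocyte transcripts Car3 and Nnat. The genes were chosen by name, with earlier results of these data known, and found through their Ensembl identifiers in GENCODE mouse release 21. All 10 reached 1 FPKM (fragments per kilobase of exon, scaled to library size) in 4 or more libraries, the filter for testing. There were 5 libraries of C57BL/6J wild type mice (WT 1 to WT 5) and 4 of Apoe-knockout mice (Apoe_KO 1 to Apoe_KO 4), which lack apolipoprotein E, a ligand through which lipoproteins are cleared from plasma. All mice were males of 7 to 8 weeks on normal chow. The labels do not give the strain background or the allele of the knockout, nor say whether each library came from its own animal or how far the outer fat was trimmed, so all p-values measure only the spread between these samples.

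Fat cells store triglyceride in a droplet whose building and breakdown are run by genes under the control of Pparg. Leptin is made in proportion to the fat stored and acts on the brain to curb feeding, whereas adiponectin acts on liver, muscle and vessel wall through its own receptors. Fat around the thoracic aorta of the mouse resembles brown fat, which burns lipid to make heat through Ucp1, while fat around the abdominal aorta is closer to white fat.

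The fat transcripts in these libraries were abundant and were not those of white fat alone. Among 13383 genes tested, the mean of Cfd over the 9 libraries ranked 10, that of Car3 14 and that of Adipoq 45. The summed level of 6 adipocyte markers (Plin1, Cidec, Fabp4, Lipe, Ucp1 and Cidea) was 1392 to 2258 FPKM in WT and 1148 to 2130 FPKM in Apoe_KO, and all 6 passed the filter. Ucp1, which marks heat-producing fat cells, averaged 290 ± 108 FPKM in WT and 249 ± 143 FPKM in Apoe_KO (SD, n = 5 and 4), and in every library its level was 10.4 to 127 times that of Lep. The highest ratio was in Apoe_KO 1, where Lep was lowest, at 1.37 FPKM. Adipoq exceeded Ucp1 in every library, and the brown adipocyte genes Zic1 and Cpt1b did not pass the filter. The level of Ucp1 thus went against a label of white fat alone, and the genes are called adipocyte genes here. The smooth muscle list (6 of 6 markers measured) summed to 4668 to 5560 FPKM in WT and 4775 to 6042 FPKM in Apoe_KO. In bulk RNA, fewer fat cells and less RNA per fat cell cannot be told apart.

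Recovered depths were 17.0 to 19.8 M reads or fragments per library. The Apoe transcript averaged 563 ± 54.0 FPKM in wild type and 6.22 ± 0.401 FPKM in knockout libraries (SD, n = 5 and 4), and every library followed its label. T and B lymphocyte markers (2 of 8 passed the filter) summed to 364 FPKM in WT 2 and 345 FPKM in Apoe_KO 4, against 15.8 to 36.8 FPKM in the other libraries. The sum of 7 heat shock genes was 458 to 594 FPKM in WT and 1228 to 1702 FPKM in Apoe_KO. Groups did not overlap for 7 of 7 genes, all higher in Apoe_KO, where 4.9% of all tested genes did so. Skeletal muscle markers (4 of 6 passed the filter) summed to 46.0 FPKM in WT 3 and to at most 10.98 FPKM elsewhere. Nerve and Schwann cell markers (6 of 6) summed to 202 to 744 FPKM in WT and 175 to 382 FPKM in Apoe_KO. The part of these genes in the results was not tested, apart from leaving out WT 2 and Apoe_KO 4.

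The 4 members whose levels the results turn on are Lep, Retn, Adipoq and Nampt, and the 250 bases before their RefSeq transcription starts are shown because the first 3 are adipocyte genes that did not keep to 1 common ratio across the libraries, and the fourth had higher values in Apoe_KO. They come from RefSeq on GRCm38.p6, all on the plus strand. They are chr6:29059971-29060220 for Lep, chr8:3655520-3655769 for Retn, chr16:23146286-23146535 for Adipoq and chr12:32820085-32820334 for Nampt. The window of Nampt lies inside the gene as GENCODE draws it, from 32819545, because the RefSeq start lies further downstream. Capitals mark the motifs found on either strand.
Lep: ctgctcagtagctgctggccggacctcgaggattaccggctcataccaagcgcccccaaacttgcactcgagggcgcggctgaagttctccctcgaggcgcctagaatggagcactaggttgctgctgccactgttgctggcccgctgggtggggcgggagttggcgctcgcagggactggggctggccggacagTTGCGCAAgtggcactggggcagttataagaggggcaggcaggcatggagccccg
Retn: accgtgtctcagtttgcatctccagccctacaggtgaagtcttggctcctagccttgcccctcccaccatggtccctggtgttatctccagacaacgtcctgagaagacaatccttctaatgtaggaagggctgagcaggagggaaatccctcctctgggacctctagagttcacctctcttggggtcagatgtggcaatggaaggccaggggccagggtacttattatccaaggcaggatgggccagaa
Adipoq: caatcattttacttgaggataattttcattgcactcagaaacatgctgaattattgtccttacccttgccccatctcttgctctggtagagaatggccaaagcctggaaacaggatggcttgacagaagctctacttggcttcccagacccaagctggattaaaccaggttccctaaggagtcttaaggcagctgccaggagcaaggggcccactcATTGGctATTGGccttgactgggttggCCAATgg
Nampt: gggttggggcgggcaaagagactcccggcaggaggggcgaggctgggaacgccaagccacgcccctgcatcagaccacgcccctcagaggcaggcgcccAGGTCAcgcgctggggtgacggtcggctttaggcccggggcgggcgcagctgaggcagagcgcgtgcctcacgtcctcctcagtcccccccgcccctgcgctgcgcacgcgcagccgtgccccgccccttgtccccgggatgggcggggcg
The letters searched, on both strands, were CCAAT, the C/EBP-type core TTGCNNAA, the nuclear receptor hexamer AGGTCA and TATAAA. No match overlapped another in these 4 windows. Lep held 1 C/EBP-type core, whose first base lies 55 bases before the start, and 9.56% of 32851 promoter windows of this length hold that motif. Adipoq held CCAAT 3 times, at 34, 27 and 7 bases before the start, and 33.85% of windows hold it at least once. Nampt held AGGTCA 1 time, at 151 bases before the start, which 14.02% of windows hold. Retn held none of the 4 motifs, and 12.37% of windows hold TATAAA. GC content was 65.6% for Lep, 54.8% for Retn, 48.8% for Adipoq and 75.6% for Nampt. These matches are letters in a window and no binding was measured. RefSeq windows were matched for 9 of the 10 members, and Car3 was the one without.

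Leptin was the only one of the 10 genes called different between genotypes. Lep (ENSMUSG00000059201, chromosome 6, 29060220 to 29073877, plus strand, GRCm38) encodes the hormone by which fat cells report their lipid stores. It was at 15.2, 21.7, 17.2, 19.5 and 9.07 FPKM in WT 1 to 5, and at 1.37, 5.43, 3.59 and 8.51 FPKM in Apoe_KO 1 to 4. Every Apoe_KO library lay below every WT library, although WT 5 and Apoe_KO 4 came close to each other. The means were 16.5 ± 4.85 FPKM in WT (SD, n = 5) and 4.73 ± 3.02 FPKM in Apoe_KO (SD, n = 4), a ratio of 3.50. Lep fell by 1.74 in log2(FPKM + 1), a scale that shrinks differences between small values (SE 0.38, limma with Benjamini-Hochberg adjustment over all genes, adjusted p = 0.0276). The values rested on 90 to 1251 reads. The call was lost without WT 1 (adjusted p = 0.0582), WT 2 (0.0605), WT 4 (0.0705) or Apoe_KO 3 (0.0863), and it remained with WT 2 and Apoe_KO 4 both left out (log2 fold change -1.93, adjusted p = 0.0393). With the mean of 12 fat handling genes as a covariate the log2 fold change was -1.44 and the adjusted p 0.229.

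That call is 1 of 10 members lower and 0 of 10 higher, where 3.92% of all tested genes were called lower and 3.43% higher (7.35% in either direction). Of all calls 46.7% were higher, and 70.1% after median centring. Groups did not overlap for Lep and Acvr1c, which were lower in Apoe_KO, and for Nampt, which was higher, against 7.48% of all genes not overlapping with lower and 4.9% with higher values. Fold changes were below 0 for 8 of the 10 members and for 63.9% of all genes, and their median was -0.45 on the log2 scale against -0.07 for all genes. At an adjusted p threshold of 0.01 no member was called.

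**Figure D1:**
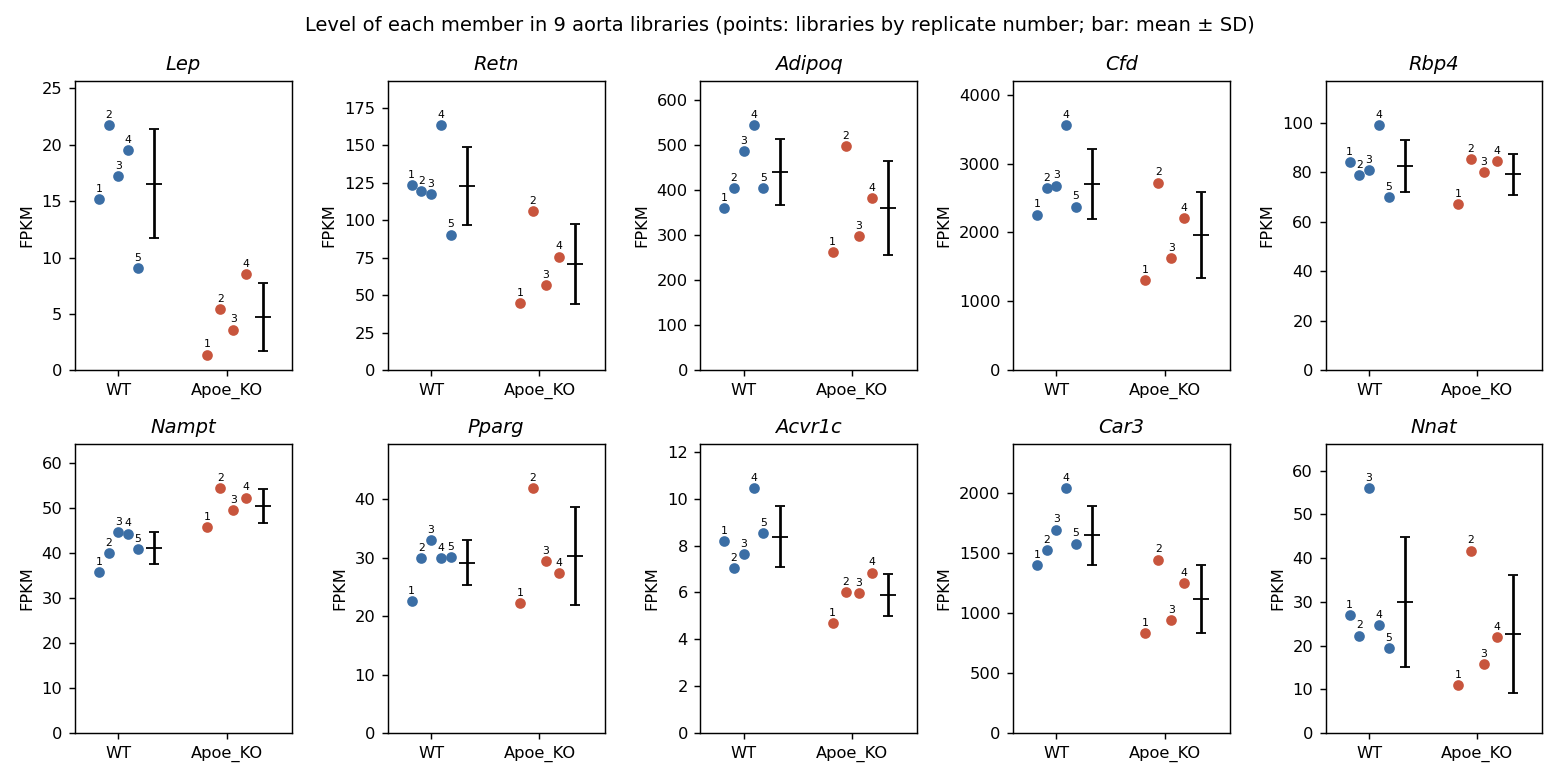
Level in FPKM (linear axis from 0) of the 10 members in the WT and Apoe_KO libraries, with each point a library marked by its replicate number and the bar the mean ± SD (n = 5 and 4). The Lep points of Apoe_KO sit between 1.37 and 8.51, all below the lowest WT library at 9.07, while the groups overlap for Adipoq, Retn, Cfd, Rbp4, Pparg, Car3 and Nnat.

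The means of Retn, Car3 and Cfd were lower in Apoe_KO, but their groups overlapped and none passed the test. Retn (chromosome 8, 3655770 to 3660110, plus strand) encodes resistin, a cysteine-rich hormone of mouse fat cells that blunts insulin action. It was at 123, 120, 117, 163 and 90.5 FPKM in WT 1 to 5 and at 45.0, 106, 56.5 and 75.8 FPKM in Apoe_KO 1 to 4. Only Apoe_KO 2 lay inside the WT range. The means were 123 ± 26.2 and 70.9 ± 26.8 FPKM (SD, n = 5 and 4), and the log2 fold change was -0.83 (SE 0.24, limma adjusted p = 0.0686). Over the 9 fits that each left out 1 library it ran from -1.05 to -0.64 with adjusted p up to 0.179, and passed in 1, that without Apoe_KO 2 (0.0187).

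Car3 (chromosome 3, 14863512 to 14872523, plus strand) encodes carbonic anhydrase 3, a cytosolic enzyme that is among the most abundant proteins of fat cells. Its levels were 1399, 1523, 1696, 2045 and 1579 FPKM in WT 1 to 5 and 834, 1445, 941 and 1253 FPKM in Apoe_KO 1 to 4. Apoe_KO 2 again was the one knockout library within the WT range. The means were 1648 ± 246 and 1118 ± 281 FPKM (SD, n = 5 and 4), with a log2 fold change of -0.58 (SE 0.17, limma adjusted p = 0.0726). Over the same 9 fits it ran from -0.72 to -0.45 with adjusted p up to 0.188, and passed in 1, again without Apoe_KO 2 (0.0285).

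Cfd (chromosome 10, 79890853 to 79892655, plus strand) encodes complement factor D, or adipsin, the protease that starts the alternative complement pathway and that fat cells supply to blood. It was at 2260, 2647, 2680, 3557 and 2374 FPKM in WT 1 to 5 and at 1310, 2723, 1628 and 2207 FPKM in Apoe_KO 1 to 4. WT 4 was highest, and 3 of the 4 Apoe_KO libraries lay below every WT library. The means were 2704 ± 509 and 1967 ± 626 FPKM (SD, n = 5 and 4), and the log2 fold change of -0.50 (SE 0.22) did not pass (limma adjusted p = 0.190).

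The adiponectin transcript did not pass the test. Adipoq, whose product raises insulin sensitivity (chromosome 16, 23146536 to 23158028, plus strand) was at 360, 404, 487, 544 and 404 FPKM in WT 1 to 5 and at 262, 497, 298 and 382 FPKM in Apoe_KO 1 to 4. Apoe_KO 2 was above 4 of the 5 WT libraries and Apoe_KO 1 and 3 were below all of them. The means were 440 ± 74.2 and 359 ± 104 FPKM (SD, n = 5 and 4), with a log2 fold change of -0.32 (SE 0.19, limma adjusted p = 0.340). Its sign turned with the fat handling mean as a covariate (0.19) or subtracted (0.14).

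Nampt and Rbp4 are made by many cell types besides fat cells. Nampt (chromosome 12, 32819545 to 32853349, plus strand), the rate-limiting enzyme of NAD salvage that is also found outside cells as visfatin, was at 35.8, 39.996, 44.7, 44.4 and 41.0 FPKM in WT 1 to 5. In Apoe_KO 1 to 4 it was at 45.8, 54.6, 49.5 and 52.4 FPKM, so every Apoe_KO library lay above every WT library. The means were 41.2 ± 3.65 and 50.6 ± 3.80 FPKM (SD, n = 5 and 4), and the log2 fold change of 0.29 (SE 0.082) missed the threshold (limma adjusted p = 0.0619). With the filter raised to 10 FPKM, which leaves fewer genes to adjust over, it passed (adjusted p = 0.0457). It passed in 0 of the 9 fits that each left out 1 library (0.24 to 0.34, limma adjusted p 0.0605 to 0.129). Gdap10 overlaps Nampt on the same strand.

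Rbp4 (chromosome 19, 38116629 to 38125281, minus strand), the plasma carrier of retinol, was at 84.2, 78.9, 80.8, 99.0 and 69.9 FPKM in WT 1 to 5 and at 67.3, 85.2, 80.1 and 84.5 FPKM in Apoe_KO 1 to 4. The 2 ranges overlapped. The means were 82.6 ± 10.6 and 79.3 ± 8.31 FPKM (SD, n = 5 and 4), with a log2 fold change of -0.06 (SE 0.11, limma adjusted p = 0.789) that turned to 0.01 under median centring.

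Of the 2 receptors, Pparg differed by less than the spread between libraries, and Acvr1c was lower in every Apoe_KO library without passing the test. Pparg (chromosome 6, 115360951 to 115490399, plus strand), the nuclear receptor that drives fat cell formation, was at 22.6, 29.9, 32.98, 29.9 and 30.1 FPKM in WT 1 to 5 and at 22.3, 42.0, 29.4 and 27.4 FPKM in Apoe_KO 1 to 4. Apoe_KO 2 held the highest value and Apoe_KO 1 the lowest. The means were 29.1 ± 3.85 and 30.2 ± 8.37 FPKM (SD, n = 5 and 4), and the log2 fold change was 0.03 (SE 0.17, limma adjusted p = 0.935), turning to -0.14 without Apoe_KO 2.

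Acvr1c (chromosome 2, 58267453 to 58357895, minus strand) encodes ALK7, a type I receptor for activin-type ligands that restrains lipid breakdown in fat cells. Its levels were 8.19, 7.03, 7.64, 10.5 and 8.53 FPKM in WT 1 to 5 and 4.71, 6.00, 5.99 and 6.85 FPKM in Apoe_KO 1 to 4. Every Apoe_KO library lay below every WT library, with WT 2 and Apoe_KO 4 closest. The means were 8.37 ± 1.30 and 5.89 ± 0.885 FPKM (SD, n = 5 and 4), and the log2 fold change was -0.44 (SE 0.12, limma adjusted p = 0.0531). It passed with voom on the recovered reads (-0.51, adjusted p = 0.0389) and with library weights (-0.53, adjusted p = 0.0195). It passed in 0 of the 9 fits that each left out 1 library (-0.51 to -0.36, limma adjusted p 0.0509 to 0.119).

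Nnat (chromosome 2, 157560078 to 157562522, plus strand) encodes neuronatin, a small membrane protein of the endoplasmic reticulum that is expressed from the paternal allele and is found in fat as well as in neurons. It was at 27.0, 22.3, 56.1, 24.7 and 19.4 FPKM in WT 1 to 5 and at 10.98, 41.7, 15.7 and 21.9 FPKM in Apoe_KO 1 to 4. WT 3 and Apoe_KO 2 stood far above the rest. The same libraries had the highest Ucp1 (456 and 459 FPKM) and the highest sum of the brown adipocyte list (1107 and 1128 FPKM). The other WT libraries did not keep to this order. WT 5 was next in WT for Ucp1 (338 FPKM) and for that sum (780 FPKM) but had the lowest WT Nnat. WT 1 had the lowest WT Ucp1 (184 FPKM), yet its Nnat was above that of WT 2, WT 4 and WT 5. The means were 29.9 ± 14.9 and 22.6 ± 13.5 FPKM (SD, n = 5 and 4), with a log2 fold change of -0.45 (SE 0.39, limma adjusted p = 0.521). Nnat lies within Blcap on the opposite strand, and the sources used here do not say whether counting used strand. Genes also lie opposite Pparg and Acvr1c.

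**Figure D2:**
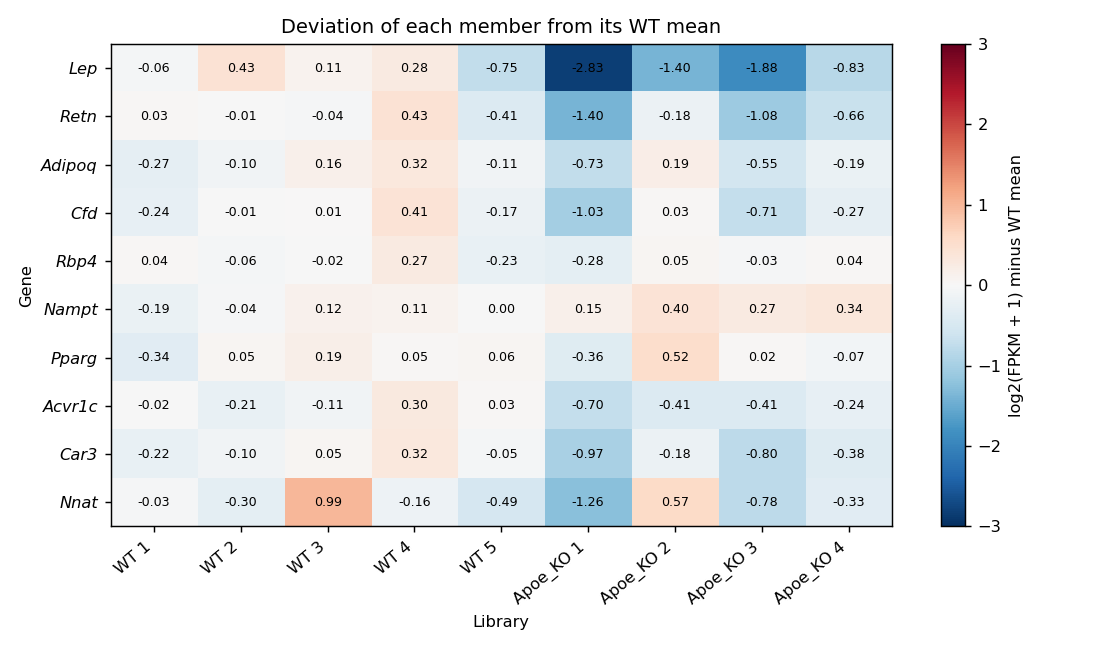
Each cell gives log2(FPKM + 1) of a member (rows) in a library (columns) minus that gene's WT mean, from blue (below) to red (above). Apoe_KO 1 holds the lowest value of 9 of the 10 genes and WT 4 the highest of 6, and the Lep deviations of Apoe_KO run from -2.83 to -0.83.

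High and low values of many members fell in the same libraries, as the plot of deviations from the WT mean shows. WT 4 held the highest value of 6 of the 10 genes and Apoe_KO 1 the lowest of 9. Together the 10 genes took 1.43% to 2.11% of all FPKM in WT libraries and 0.898% to 1.501% in Apoe_KO libraries. Most of this share was Cfd and Car3, at 2260 and 1399 of 4335 FPKM in WT 1 and 1310 and 834 of 2604 FPKM in Apoe_KO 1. It therefore says little about the other members. The mean log2 level of 12 genes of lipid droplets and fat handling, none of them a member, ran from 6.90 to 7.43 in WT and from 6.42 to 7.08 in Apoe_KO. Apoe_KO 2, at 7.08, lay within the WT range by this measure, and the other 3 knockout libraries were below it.

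For each member the genes of nearest pattern over the 9 libraries were taken by the root mean square difference of centred log2 values. Adipoq was nearest to Cidec (difference 0.054), a lipid droplet protein, and then to Mgst1 (0.104) and Fabp4 (0.105), a fatty acid carrier. Adipoq was 96.5 to 109 FPKM per 100 FPKM of Cidec in all 9 libraries. Car3 was nearest to Cfd (0.097), the only member among the nearest genes of another, and both had Ifi27l2a among their 3 nearest (0.103 and 0.088). Retn was nearest to Aldh1a7 (0.137) and Eepd1 (0.140), and Cfd to Gpat3 (0.078). Nampt was nearest to Por (0.069) and Acvr1c to Hoxa9 (0.082). Lep was nearest to Cyp2f2 (0.411), at 16.9 FPKM in WT and 3.14 FPKM in Apoe_KO on average. Insig1 (0.490), a brake on sterol-driven lipid synthesis, came next for Lep, at 61.3 and 26.6 FPKM. The first genes for the others were Pet100 for Rbp4 (0.074), Mgmt for Pparg (0.110) and Gm15551 for Nnat (0.337). These differences were not scaled to a gene's own spread, so they tend to be larger for genes that vary more. They therefore cannot be compared between members, and those of Lep and Nnat do not show how unusual their patterns are.

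Because Adipoq tracked Cidec so closely, the other 9 members were also set against Adipoq in the same library, a denominator chosen after the values were seen. The exact two-sided permutation test, with 126 permutations, cannot go below p = 0.0159, and after adjustment over all genes the smallest value was 0.624, so no gene passed on this scale. Lep per 100 FPKM of Adipoq was 4.22, 5.38, 3.54, 3.59 and 2.25 in WT 1 to 5 and 0.525, 1.09, 1.21 and 2.23 in Apoe_KO 1 to 4. The groups did not overlap, though WT 5 and Apoe_KO 4 nearly met. The means were 3.79 ± 1.14 and 1.26 ± 0.7097 (SD, n = 5 and 4), a log2 difference of -1.42 (exact permutation p = 0.0159).

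Retn per 100 FPKM of Adipoq was 34.3, 29.6, 24.1, 30.1 and 22.4 in WT 1 to 5 and 17.2, 21.4, 18.997 and 19.9 in Apoe_KO 1 to 4. Apoe_KO 2, which was within the WT range in FPKM, was here below every WT library. The means were 28.1 ± 4.82 and 19.4 ± 1.75 (SD, n = 5 and 4), a log2 difference of -0.52 (exact permutation p = 0.0159). Car3 ran from 348 to 391 in WT and from 291 to 328 in Apoe_KO, with means of 376 ± 17.0 and 313 ± 15.9 (SD, n = 5 and 4) and a log2 difference of -0.26 (exact permutation p = 0.0159). Nampt ran from 8.16 to 10.2 in WT and from 10.98 to 17.5 in Apoe_KO, with a log2 difference of 0.61 (exact permutation p = 0.0159). The denominator adds to that difference, since the log2 fold changes in FPKM were 0.29 for Nampt and -0.32 for Adipoq. The groups of Lep and Nampt did not overlap in FPKM either. On this scale 3 of 9 members were lower and 1 of 9 higher without overlap, where 0.247% and 1.74% of all genes were. That background holds genes of every cell type in the vessel. Dividing by Adipoq adds its spread to genes that do not follow it and takes spread from genes that do. In FPKM the shares of all genes were 7.48% lower and 4.9% higher. The counts of members therefore cannot be weighed against the shares on this scale.

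The other 5 overlapped on this scale. Their log2 differences were -0.18 for Cfd (exact permutation p = 0.0317), 0.35 for Pparg (p = 0.0476), 0.26 for Rbp4 (p = 0.175), -0.13 for Acvr1c (p = 0.524) and -0.13 for Nnat (p = 0.730), and these p-values are unadjusted. Of the 12 fat handling genes, 1 did not overlap, Agpat2, at 34.1 to 40.6 per 100 FPKM of Adipoq in WT and 18.6 to 27.0 in Apoe_KO. With the mean of the fat handling genes as the denominator, the log2 differences were -1.27 for Lep (exact permutation p = 0.0317) and 0.75 for Nampt (p = 0.0159). They shrank to -0.37 for Retn (exact permutation p = 0.127), -0.12 for Car3 (p = 0.349) and -0.03 for Cfd (p = 0.841).

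**Figure D3:**
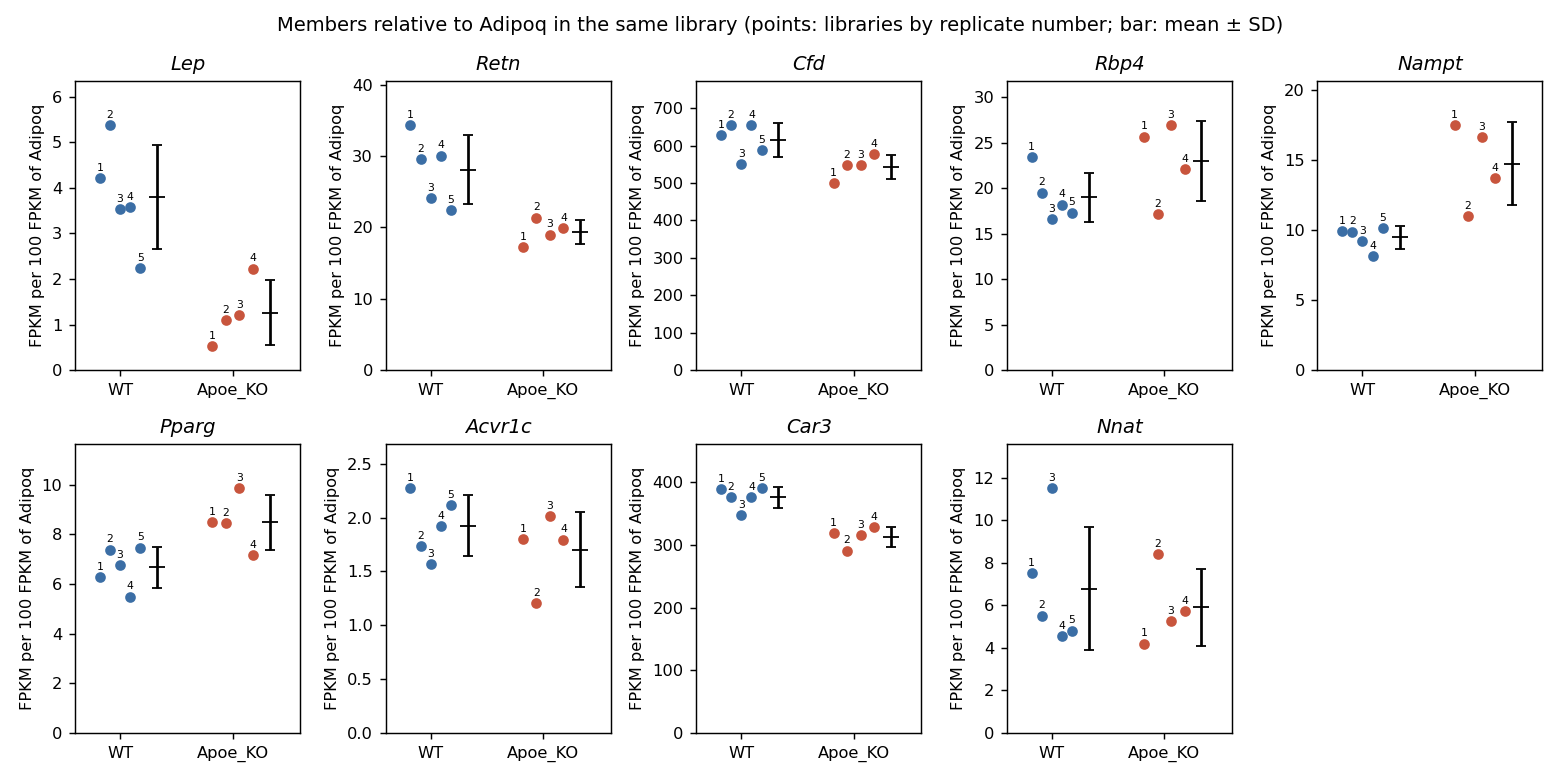
Level of 9 members per 100 FPKM of Adipoq in the same library (linear axis from 0), with each point a library marked by its replicate number and the bar the mean ± SD (n = 5 and 4). Lep, Retn and Car3 of Apoe_KO lie below all WT libraries and Nampt above them, while Rbp4, Pparg, Acvr1c, Cfd and Nnat overlap.

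The wider gene lists around these members were read in the same fit. Their genes were chosen by name, with earlier results of these data known. Of 112 tested genes on 11 lists, 8 were called lower and 4 higher in Apoe_KO, and with WT 2 and Apoe_KO 4 left out 1 lower (Apln) and 1 higher (Klf15). The share over all tested genes was 3.92% lower and 3.43% higher, so the count of higher list genes was near the background. Of the 12 lipid droplet and fat handling genes, 2 fell, 0 rose and all 12 had a fold change below 0, with a median of -0.47, where 63.9% of all genes were below 0 and their median was -0.07. Agpat2, which makes phosphatidic acid on the way to triglyceride, was at 146, 151, 172, 216 and 138 FPKM in WT 1 to 5 and at 70.7, 116, 63.7 and 71.1 FPKM in Apoe_KO 1 to 4. It fell by 1.05 on the log2 scale (SE 0.19, limma adjusted p = 0.0117) with no overlap. Plin1, the main coat protein of the droplet, was at 137 ± 21.9 and 93.0 ± 17.5 FPKM (SD, n = 5 and 4; log2 fold change -0.56, limma adjusted p = 0.0466), and this call held in only 1 of 9 fits that each left out 1 library, the one without Apoe_KO 2. Agpat2 was called in all 9 but not with both WT 2 and Apoe_KO 4 left out (adjusted p = 0.0624). Of 10 tested brown adipocyte genes 0 were called in either direction, with a median of -0.16, and Acot11, an acyl-CoA thioesterase, had the smallest p (-0.52, limma adjusted p = 0.0662).

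Of 14 adipogenic regulators 3 fell and 2 rose, and the median was 0.02. Klf15, a transcription factor of fat and muscle that responds to glucocorticoid, was at 18.7, 17.0, 22.4, 20.7 and 20.9 FPKM in WT 1 to 5 and at 36.9, 36.8, 38.3 and 39.6 FPKM in Apoe_KO 1 to 4. It rose by 0.90 on the log2 scale (SE 0.079, limma adjusted p = 0.000655), and the groups were far apart. Cebpd, which acts early in fat cell formation and in the acute phase response, was at 12.2 ± 3.58 and 26.6 ± 5.73 FPKM (SD, n = 5 and 4; log2 fold change 1.08, limma adjusted p = 0.0145) and lost its call without Apoe_KO 3 (0.0525). Cebpa, the C/EBP of mature fat cells, was at 95.2 ± 19.1 and 61.7 ± 7.67 FPKM (SD, n = 5 and 4; -0.60, limma adjusted p = 0.0381). Srebf1, which drives fatty acid synthesis genes, was at 37.5 ± 4.70 and 24.5 ± 3.92 FPKM (SD, n = 5 and 4; -0.60, limma adjusted p = 0.0217). Ebf2, a factor of brown and beige fat cells, was at 5.99 ± 0.989 and 4.17 ± 0.344 FPKM (SD, n = 5 and 4; -0.43, limma adjusted p = 0.0464), and its groups touched at 4.68 FPKM. The call of Cebpa was lost in 6 of the 9 fits that each left out 1 library and that of Ebf2 in 7, and with the fat handling mean as a covariate the log2 fold changes were -0.25 for Cebpa (adjusted p = 0.361) and -0.20 for Ebf2 (0.398). Srebf1 lost its call without WT 4 (0.0570) or Apoe_KO 3 (0.0516). Among the genes named from these lists, Agpat2, Cebpa, Cebpd, Srebf1, Ebf2, Nrg4, Stat3, Plagl1 and Acot11 have genes on the opposite strand, and Naprt overlaps Eef1d on the same strand.

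Of 14 other adipokines tested, 2 fell, 1 rose and the median was -0.10. Apln, the vasoactive peptide apelin, was at 1.91, 2.63, 2.44, 1.98 and 1.89 FPKM in WT 1 to 5 and at 0.390, 0.924, 0.438 and 0.450 FPKM in Apoe_KO 1 to 4. It fell by 1.04 (SE 0.13, limma adjusted p = 0.00214), without overlap. Every Apoe_KO library was below 1 FPKM, so Apln passed the filter only through WT, where it is high. Its call and lack of overlap are therefore only a description. Nrg4, a growth factor that brown fat secretes, was at 10.2 ± 1.22 and 7.11 ± 1.13 FPKM (SD, n = 5 and 4; -0.47, limma adjusted p = 0.0367). That call was kept only without WT 2 or without Apoe_KO 2 among the 9 fits, and with the fat handling mean as a covariate the log2 fold change was -0.24 (adjusted p = 0.342). Klf15 kept its call in all 9 fits that each left out 1 library, and so did Apln, with the limit of the filter just given.

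**Figure D4:**
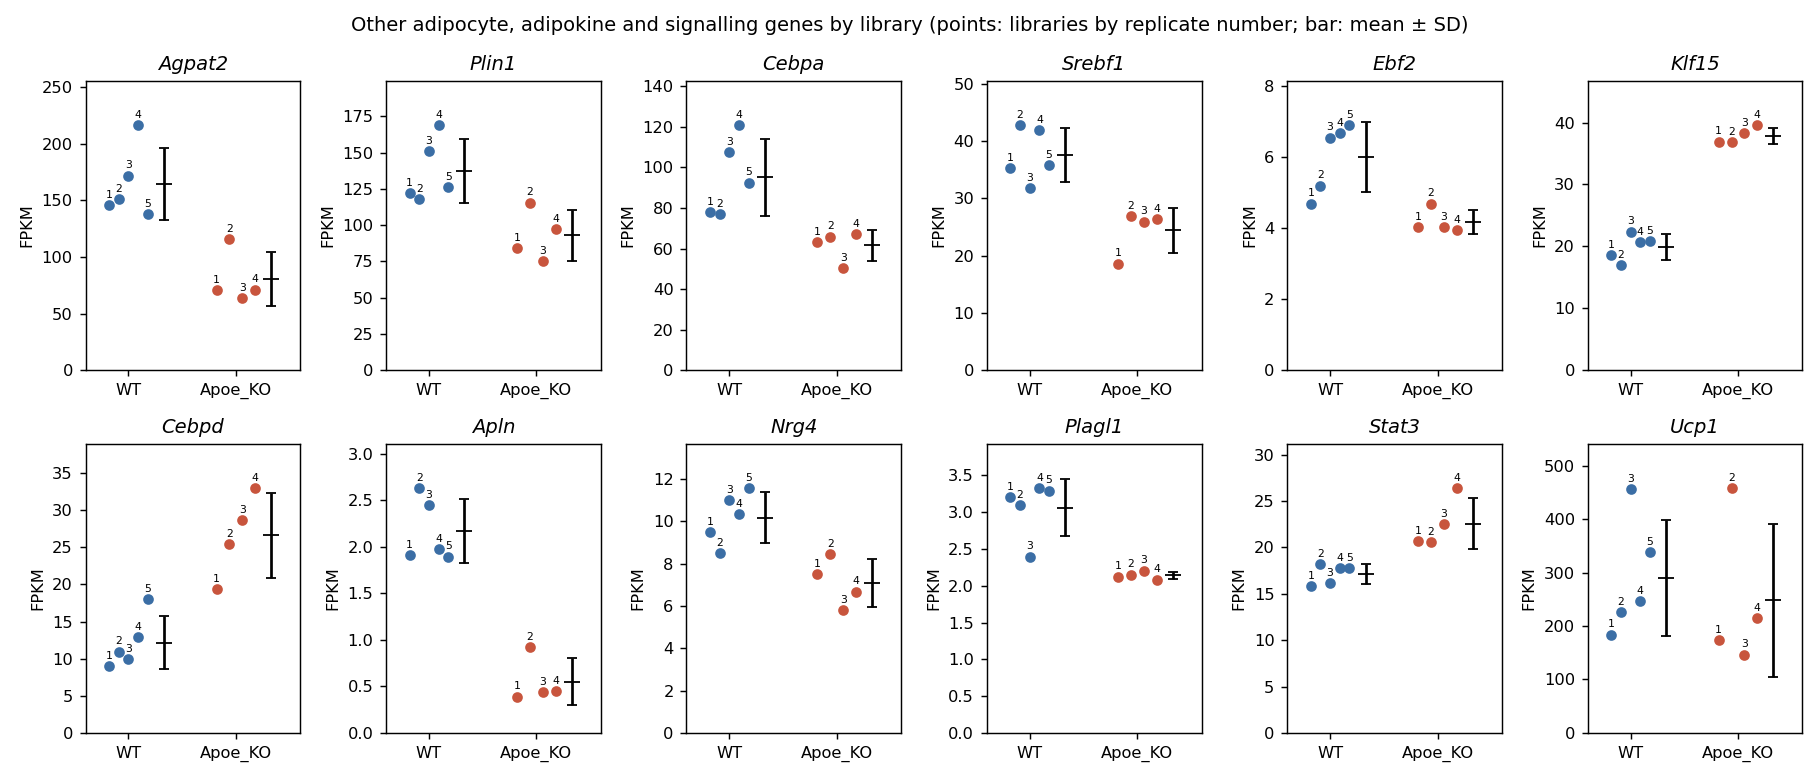
Level in FPKM (linear axes from 0) of 12 other adipocyte, adipokine and signalling genes, with each point a library marked by its replicate number and the bar the mean ± SD (n = 5 and 4). Klf15, Cebpd and Stat3 lie higher in every Apoe_KO library, Agpat2, Plin1, Cebpa, Srebf1, Apln, Nrg4 and Plagl1 lie lower, and Ucp1 overlaps, with WT 3 at 456 and Apoe_KO 2 at 459.

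Among 11 genes of leptin, adiponectin and resistin reception and signalling, 1 rose, 0 fell and the median was 0.19. Stat3, the factor that the leptin receptor and other cytokine receptors activate, was at 17.2 ± 1.06 and 22.6 ± 2.73 FPKM (SD, n = 5 and 4; log2 fold change 0.37, limma adjusted p = 0.0276). The call was lost in 5 of the 9 fits that each left out 1 library (adjusted p up to 0.0813) and with the fat handling mean as a covariate (0.212). The receptor gene Lepr, chosen after its values were seen, ran from 4.19 to 5.36 FPKM in WT and from 4.22 to 7.13 FPKM in Apoe_KO, which overlap. Socs3, a feedback inhibitor that Stat3 induces, also chosen after its values were seen, ran from 2.88 to 11.6 FPKM in WT and from 2.75 to 56.7 FPKM in Apoe_KO (limma adjusted p = 0.202).

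The lists built around the other members held 1 call among them. Of 12 NAD salvage genes 0 were called, with a median of -0.13. There Naprt, which makes NAD from nicotinic acid, had the smallest p (5.87 ± 0.596 and 4.26 ± 0.816 FPKM, SD, n = 5 and 4; limma adjusted p = 0.0659). None of 7 tested genes of alternative complement was called (median 0.08), and none of 6 of retinoid transport (median -0.01; the smallest p was that of Rdh10, adjusted 0.0860). None of 10 of activin-type signalling was called either (0.0046; Acvr1b, 0.0545), nor any of 8 carbonic anhydrases other than Car3 (-0.04; Car5b, 0.155). Of 8 tested imprinted genes and the Nnat host, 1 fell, Plagl1, a zinc finger factor expressed from the paternal allele, at 3.06 ± 0.384 and 2.14 ± 0.052 FPKM (SD, n = 5 and 4; -0.37, limma adjusted p = 0.0371). Its call held in 1 of the 9 fits that each left out 1 library, the one without WT 3, and its sign turned with the fat handling mean subtracted (0.095).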

How the data were processed

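RNA of whole aorta was sequenced in 9 libraries. Per the labels' protocols ribosomal RNA was depleted, whereas the labels' molecule field names polyA RNA. The authors deposited 1 table of 33293 genes with no unit in its header, and its values were taken to be FPKM: times exonic length (GENCODE release 21) they gave whole reads within 0.1 read for 97.6% to 97.9% of values of up to 50 reads. Per the submitters' processing notes the build was GRCm38, and limma is named with no role. The aligner, the counting program and its strand setting were not given in the sources used here. GENCODE held 33240 of the identifiers.

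The 13383 genes that reached 1 FPKM in 4 or more libraries entered limma 3.58.1 as log2(FPKM + 1) (R 4.3.3, empirical Bayes, trend and robust), genotype as the only term, Benjamini-Hochberg threshold 0.05. The members and lists were chosen with earlier results of these data known. Named were all 10 members, per list up to 4 called genes by smallest p or else the 1 of smallest p, the 3 nearest patterns per member (of which some are given) and Apoe; 2 genes that this rule names are not reported here but stay in every count. Values relative to Adipoq used exact permutation tests. In 5 simulations with 13557 to 13592 genes, 82.4% of genes changed 1.5-fold and 96.0% changed 2-fold were recovered, and 5.71% of calls were false. The simulations gave all genes the same dispersion (0.0111) and drew each gene independently. They held no variation shared within a library, so these rates cannot be carried over to the members, many of which varied together. Alternatives covered the replicate block, single libraries, pseudocount 0.1, filters, scaling, weights, voom, fat content and a threshold of 0.01. The denominators were added after seeing the data. Python 3.11.15 with pandas 2.3.3, numpy 2.4.6 and matplotlib 3.10.9 was used.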

Additional observations from a re-analysis of the deposited data

Results flagged for a closer look

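Of 56 groups of libraries (28 genes in 2 genotypes), 6 held a single library far from the others, where chance flags about 1 in 20 independent groups. These groups were not independent, since the genes share the same libraries and many varied together. The count therefore cannot be read as an excess. Nnat was at 56.1 FPKM in WT 3, with the next WT library at 27.0. In Apoe_KO 2, Agpat2 was at 116 FPKM (next 71.1), Apln at 0.924 FPKM (next 0.450) and Ebf2 at 4.68 FPKM (next 4.02), each the highest of the knockout libraries. Plagl1 was lowest in WT 3, at 2.40 FPKM (next 3.09), and Srebf1 was lowest in Apoe_KO 1, at 18.6 FPKM (next 25.9).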

How the results depend on the processing

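Members called lower (1) were 0 with no filter, with the fat handling mean as a covariate and at a threshold of 0.01, 2 with a filter of 10 FPKM (Lep and Retn) or voom (Lep and Acvr1c), 4 with library weights (Lep, Retn, Acvr1c and Car3), and 0 to 3 without single libraries. Members called higher (0) were 1 with the filter of 10 FPKM or with the fat handling mean subtracted (Nampt in both). Subtracting that mean gives every gene the spread of the fat list, so its calls are counted below but not taken as results. The differences given above with that mean as the denominator are the same subtraction and share this limit. Levels relative to Adipoq likewise carry the spread of Adipoq.

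List genes called lower (8) and higher (4) were 1 and 1 without WT 2 and Apoe_KO 4, 17 and 8 with library weights, 0 and 1 with the covariate, 1 and 19 with the mean subtracted, and 1 and 2 at a threshold of 0.01. List genes called lower were 3 with no filter, 3 with median centring (7 higher) and 5 with quantile normalization. Without single libraries they were 2 to 13 lower and 2 to 8 higher. The calls of Cebpa held in 3 of those 9 fits, Nrg4 and Ebf2 in 2, Plin1 and Plagl1 in 1, Stat3 in 4, Srebf1 in 7 (not without WT 4 or Apoe_KO 3) and Cebpd in 8. Plin1 held without Apoe_KO 2, Plagl1 without WT 3, Ebf2 without WT 1 or Apoe_KO 2, and Nrg4 without WT 2 or Apoe_KO 2. Cebpa held without WT 1, WT 2 or Apoe_KO 2, and Stat3 without WT 2, Apoe_KO 1, Apoe_KO 2 or Apoe_KO 4. With the mean subtracted the log2 fold changes were -0.14 for Cebpa and Srebf1, -0.10 for Plin1, -0.0063 for Nrg4 and -0.58 for Apln, and with the covariate they were -0.15 for Plin1 and -0.52 for Agpat2, which are both part of that mean.

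All genes called lower (524) and higher (459) were 165 and 202 without WT 2 and Apoe_KO 4, 198 and 247 with no filter, 1055 and 702 with library weights, 38 and 62 with the covariate, 19 and 1801 with the mean subtracted, and 86 and 147 at 0.01. Those lower were 220 with the filter of 10 FPKM, 269 with median centring and 240 with quantile normalization. Without single libraries they were 179 to 678 lower and 210 to 580 higher. The share of calls that were higher was 46.7%, and 70.1% with median centring and 66.9% with quantile normalization.

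Same-numbered libraries did not deviate together (correlations 0.259, -0.267, -0.129 and -0.218), so the numbers were not taken as pairs. With the replicate block, 62 genes were called lower and 121 higher, list genes were 1 lower and 2 higher, and Lep alone of the members was called (log2 fold change -1.92, adjusted p = 0.0401).

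Signs turned for Adipoq with the covariate (0.19) and the mean subtracted (0.14). Without single libraries Rbp4 ran from -0.113 to 0.020, Pparg from -0.137 to 0.158, and relative to Adipoq Acvr1c from -0.211 to 0.034 and Nnat from -0.303 to 0.076. The sign turned for Rbp4 without WT 4 (0.012), without Apoe_KO 1 (0.020), with median centring (0.012), the covariate (0.088) and the mean subtracted (0.41), and for Pparg without WT 1 (-0.057), without Apoe_KO 2 (-0.14) and with library weights (-0.034). With the mean subtracted they turned for Acvr1c (0.018), Nnat (0.011; 0.36 with the covariate), Ebf2 (0.035) and Plagl1 (0.095). Relative to Adipoq, Acvr1c turned with the fat handling mean as the denominator (0.018) and without Apoe_KO 2 (0.034). Nnat turned with that denominator (0.011), without WT 3 (0.076) and without Apoe_KO 1 (0.0014). The cause of these changes was not tested. Without WT 2 and Apoe_KO 4, the exact test relative to Adipoq cannot go below 0.0571. The fewest reads behind a member's value were 90, for Lep in Apoe_KO 1.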

Other observations

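C5ar2 (chromosome 7, 16234585 to 16244154, minus strand, GRCm38), a receptor for complement fragments, was on the list around Cfd but below the filter, and was chosen after its values were seen. It was at 0.639, 0.694, 0.641, 0.529 and 0.724 FPKM in WT 1 to 5 (36 to 48 reads) and at 0.0863, 0.0756, 0.164 and 0.122 FPKM in Apoe_KO 1 to 4 (5 to 11 reads). The groups did not overlap, and in the fit with no filter its log2(FPKM + 1) fold change was -0.56 (SE 0.075, limma adjusted p = 0.00954). Because it was chosen after its values were seen, its p-value and lack of overlap are only a description. Of the genes that passed the filter, 7.48% did not overlap with lower values. C5ar2 lies on the chromosome of Apoe, which is at 19696109 to 19699188, and so do Plin1 and Cebpa. Whether position bears on these levels was not tested.

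The ratio of Ucp1 to Lep was 12.1, 10.4, 26.4, 12.7 and 37.3 in WT 1 to 5 and 127, 84.5, 40.8 and 25.2 in Apoe_KO 1 to 4, and the groups overlapped. Adipoq was 107 to 220 FPKM per 100 FPKM of Ucp1 over the 9 libraries, lowest in WT 3.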
